A study of Mus musculus with 9 samples.

Results

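The genes described here are 10 genes of the neuronal cytoskeleton, chosen by name from the 26602 genes with at least 1 count in the series. They comprise 5 subunits of neuronal intermediate filaments, Nefl, Nefm, Nefh, Ina and Prph, and 5 genes whose proteins bind microtubules or tubulin, Mapt, Map2, Map1a, Map1b and Stmn2. Midbrain including the SNpc was taken from 4 DJ-1+/+ mice (WT) and 5 DJ-1-/- mice (DJ-1 KO) at 3 to 4 months of age, with 1 library for each mouse. The knockout line had been crossed back to C57BL/6, and mice of both genotypes came from heterozygous matings and shared cages. The libraries read a fragment close to the polyadenylated end of each transcript and carried molecular tags (UMIs), so counts are of tags and not of whole transcripts read end to end. WT libraries held 841974, 879901, 859549 and 886085 counts and DJ-1 KO libraries 999042, 1098125, 969376, 967751 and 1026201, so that every DJ-1 KO library was the deeper.

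Neurofilaments are the main intermediate filaments of mature axons. They are built from a light (Nefl), a medium (Nefm) and a heavy (Nefh) chain together with alpha-internexin (Ina) in the central nervous system, while peripherin (Prph) is known from peripheral, cranial motor and some brainstem neurons. Microtubules run alongside these filaments and are bound by tau (Mapt), found mostly in axons, by Map2, found mostly in dendrites, and by the large proteins Map1a and Map1b, whereas Stmn2 binds free tubulin and is known for its part in axon growth and regeneration.

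Park7, the gene of DJ-1, was looked at first as a check of the labels. WT mice had 132, 105, 113 and 118 counts of it, and DJ-1 KO mice 23, 29, 14, 19 and 19, so that every labelled knockout lay below every WT mouse. Its log2 fold change was −2.71 (standard error 0.15, edgeR adjusted p = 7.44e-08). Which part of Park7 the counted fragments came from was not analysed here.

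All 10 cytoskeletal genes had counts in all 9 libraries and passed the filter of 10 counts over the libraries. Expression is given as cpm, the count over the library total times 1000000. Map1b was the most abundant, with 521 ± 24.1 cpm (SD, n = 9) over all mice, followed by Map1a with 397 ± 20.1 cpm and Nefl with 366 ± 35.8 cpm (SD, n = 9). Nefm (335 ± 43.1 cpm), Mapt (326 ± 11.3 cpm), Stmn2 (306 ± 12.1 cpm), Ina (297 ± 27.9 cpm), Map2 (292 ± 18.2 cpm) and Nefh (287 ± 50.7 cpm) followed closely, and these neighbours overlapped within 1 SD (n = 9). Prph, with 33.1 ± 18.9 cpm (SD, n = 9), was far below the others. Among the 18127 genes tested Map1b ranked 7 by mean count and 9 of the 10 genes lay within the first 100, with Prph at rank 9219.

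The order of these highest levels is held within a narrow range in these data. Mbp, a myelin gene, had a mean of 523 cpm and the mitochondrial mt-Co1 408 cpm, both close to Map1b and Map1a. A single gene, Gm42418, had a mean above 1000 counts, and the gene at rank 100 still had 268. The source of this narrow range, saturation of the tags included, was not tested. Whether it also narrows differences between mice, in fold changes and spread of the 9 abundant members alike, was not tested either. Mbp and mt-Co1 were named for this comparison after their values were seen.

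None of the 10 genes passed the test between genotypes. In edgeR's quasi-likelihood test 0 of 10 had an adjusted p under 0.05, where 0.00552% of all tested genes did (1 gene, Park7), and 0 of 10 had an unadjusted p under 0.05, against 2.82% of all tested genes. DESeq2 likewise gave 0 of 10 by either rule. The cpm of WT and DJ-1 KO mice overlapped for all 10, whereas 1.25% of all tested genes showed no overlap. The fitted log2 fold change was above 0 for 3 members and below 0 for 7, with a median of −0.038 beside 0.007 over all tested genes. Those genes, 9386 above 0 and 8741 below, mostly had lower levels than the abundant members. Genes with a log2 cpm of 8.5 or more, Nefl, Map1a and Map1b among them, had a median of −0.078. Those between 8 and 8.5 had −0.015. In whole tissue, fewer cells of a type and less RNA in each cell cannot be told apart.

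**Figure D1:**
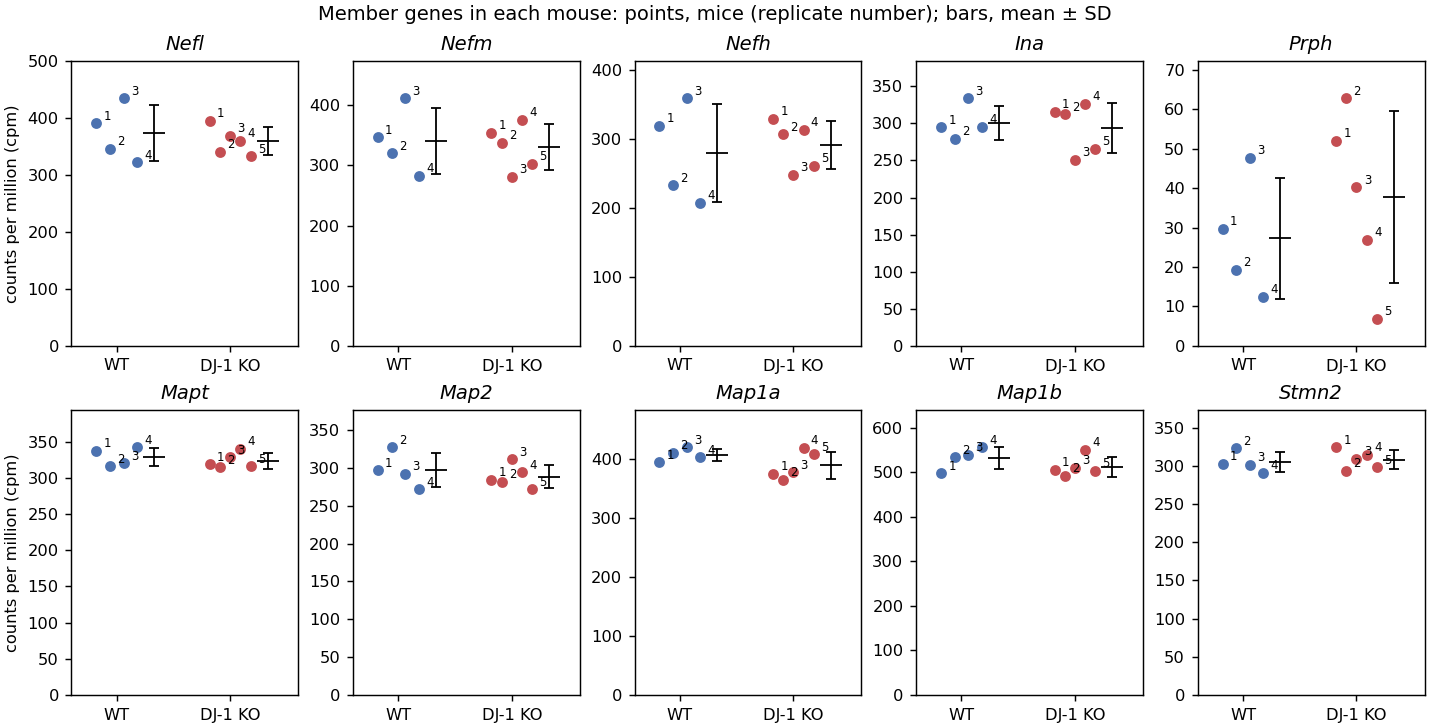
Expression of the 10 genes in cpm (vertical axes, starting at 0) in each of 4 WT and 5 DJ-1 KO mice, with points numbered by replicate and black bars for mean ± SD. The genotypes overlap for every gene, and Nefh and Prph spread more widely than Mapt or Stmn2.

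Nefl, the light chain on which the other chains assemble, measured 391, 347, 435 and 323 cpm in WT 1 to 4 and 395, 341, 369, 361 and 333 cpm in DJ-1 KO 1 to 5. WT 3 was the highest mouse and WT 4 the lowest, so the WT range enclosed all 5 knockouts. The means were 374 ± 49.6 cpm (SD, n = 4) in WT and 360 ± 24.7 cpm (SD, n = 5) in DJ-1 KO mice (exact two-sided permutation test, p = 0.603). Its log2 fold change was −0.06 with a 95% interval from −0.23 to 0.12.

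Nefm, the medium chain, measured 347, 321, 412 and 283 cpm in WT and 354, 338, 282, 376 and 303 cpm in DJ-1 KO mice. Again WT 3 was highest, and DJ-1 KO 3 and WT 4 were the lowest. The log2 fold change of Nefm was −0.04 (95% interval −0.26 to 0.18).

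Nefh, the heavy chain, which joins filaments as axons mature, measured 319, 233, 360 and 208 cpm in WT mice and 329, 307, 249, 314 and 261 cpm in DJ-1 KO mice. WT mice separated into higher values in WT 1 and WT 3 and lower ones in WT 2 and WT 4, and the knockouts lay between these ends. The highest mouse had 1.73 times the level of the lowest. The means of 280 ± 71.5 cpm (SD, n = 4) in WT and 292 ± 35.1 cpm (SD, n = 5) in DJ-1 KO mice were not separated by the test (exact two-sided permutation test, p = 0.746), and the log2 fold change of 0.06 had a 95% interval from −0.22 to 0.35. Its sign turned to −0.02 without WT 2 and to −0.06 without WT 4.

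Ina, alpha-internexin, measured 294, 280, 334 and 296 cpm in WT mice and 315, 312, 251, 326 and 266 cpm in DJ-1 KO mice. DJ-1 KO 3 and DJ-1 KO 5 lay below all WT mice and the other knockouts lay among them. The log2 fold change was −0.03 (95% interval −0.21 to 0.15).

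Prph, peripherin, was the member that varied most between mice. WT mice had 25, 17, 41 and 11 counts and DJ-1 KO mice 52, 69, 39, 26 and 7, or 29.7, 19.3, 47.7 and 12.4 cpm against 52.1, 62.8, 40.2, 26.9 and 6.82 cpm. DJ-1 KO 1 and DJ-1 KO 2 were above every WT mouse and DJ-1 KO 5 was below every one, a 9.21-fold range over the 9 mice. The means were 27.3 ± 15.4 cpm (SD, n = 4) in WT and 37.8 ± 21.9 cpm (SD, n = 5) in DJ-1 KO mice (exact two-sided permutation test, p = 0.444).

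The fitted log2 fold change of Prph was 0.48 with a 95% interval from −0.46 to 1.41, that is from 0.726-fold to 2.66-fold, so neither a lower nor a higher level could be told from no difference. The estimate moved with single mice. Without DJ-1 KO 5 it was 0.74 with an unadjusted p of 0.0371 and an adjusted p of 1.0 from edgeR, and without WT 3 it was 0.89. It was 0.21 without DJ-1 KO 2, 0.23 without WT 4, 0.33 without DJ-1 KO 1 and 0.34 without WT 2. When Xist (log2 cpm) entered the model it was 0.07. Xist, expressed in females, had 0, 160, 146 and 1 counts in WT and 159, 193, 148, 165 and 2 counts in DJ-1 KO mice. WT 1, WT 4 and DJ-1 KO 5 thus had at most 2 counts. Sex was mixed within both genotypes but not in equal parts, the low mice being a larger part of WT.

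**Figure D2:**
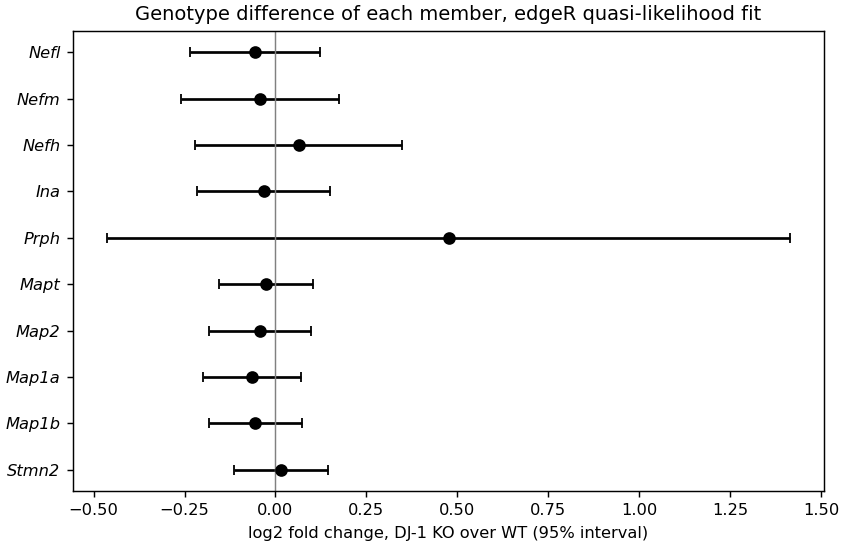
Log2 fold change of DJ-1 KO over WT (horizontal axis) for each gene from edgeR's quasi-likelihood fit over 4 WT and 5 DJ-1 KO libraries, with bars for the 95% interval. Every interval includes 0, and that of Prph, from −0.46 to 1.41, is the widest.

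The mix of filament subunits was compared within each library, where the library total and the scaling factor cancel. Whether depth acts otherwise on the shares of such abundant genes was not tested. Nefl made up 27.9 ± 1.79%, Nefm 25.4 ± 1.03%, Ina 22.7 ± 1.67% and Nefh 21.6 ± 1.64% of the summed counts of the 5 subunits (SD, n = 9), with 2.44 ± 1.30% for Prph. The share of Nefh was 23.1, 19.4, 22.6 and 18.5% in WT mice and 22.8, 22.6, 20.9, 22.4 and 22.3% in DJ-1 KO mice. WT 2 and WT 4 were again the low mice. Its mean was 20.9 ± 2.30% (SD, n = 4) in WT and 22.2 ± 0.745% (SD, n = 5) in DJ-1 KO mice (exact two-sided permutation test, p = 0.317).

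In WT 4, where the share of Nefh was lowest, that of Ina was highest at 26.4%, against 21.03 to 23.3% in the other 8 mice. The share of Prph ran from 0.583% in DJ-1 KO 5 (95% Wilson interval 0.283 to 1.20%, counting error only) to 4.62% in DJ-1 KO 2 (3.67 to 5.80%), intervals that do not meet. None of the 5 shares passed the test between genotypes, with exact two-sided permutation p from 0.317 to 0.651 over 5 comparisons, where 0.0159 is the smallest value that 4 mice against 5 allow.

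Over the 9 mice the SD over the mean of cpm was 3.47% (Mapt) to 6.21% (Map2) for the microtubule-binding genes. For the filament subunits it was 9.38% (Ina) to 57.2% (Prph), a difference that was not tested. In WT mice alone Map2 (SD 22.9 cpm, n = 4) and Ina (SD 23.2 cpm, n = 4) spread alike. Mapt, tau, measured 337, 316, 320 and 342 cpm in WT and 318, 314, 328, 340 and 316 cpm in DJ-1 KO mice. These mice differed by 1.09-fold at most, and the log2 fold change was −0.03 (95% interval −0.15 to 0.10). Map2, the dendritic protein, measured 297, 327, 292 and 272 cpm in WT and 284, 281, 311, 294 and 272 cpm in DJ-1 KO mice, with a log2 fold change of −0.04 (95% interval −0.18 to 0.10). WT 2 was its highest mouse and WT 4 and DJ-1 KO 5 its lowest.

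Map1a, prominent in mature neurons, measured 394, 410, 420 and 403 cpm in WT and 375, 365, 378, 419 and 408 cpm in DJ-1 KO mice. DJ-1 KO 1, 2 and 3 lay below all WT mice, while DJ-1 KO 4 and 5 lay within the WT range. The means were 407 ± 10.9 cpm (SD, n = 4) and 389 ± 23.4 cpm (SD, n = 5), a difference that the exact two-sided permutation test did not separate from none (p = 0.175). Its log2 fold change was −0.07 (95% interval −0.20 to 0.07).

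Map1b, prominent in growing neurites, measured 498, 534, 540 and 556 cpm in WT and 505, 493, 511, 551 and 504 cpm in DJ-1 KO mice. All but 1 of the knockouts lay within the WT range, DJ-1 KO 2 being below it. Its log2 fold change was −0.05 (95% interval −0.18 to 0.07). The 32 genes with a log2 cpm of 8.5 or more, Nefl, Map1a and Map1b among them, had a median log2 fold change of −0.078. The 131 genes between 8 and 8.5, with the other 6 abundant members among them, had −0.015.

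Stmn2 measured 303, 323, 301 and 291 cpm in WT and 324, 293, 309, 314 and 298 cpm in DJ-1 KO mice. DJ-1 KO 1 was just above the highest WT mouse and the others lay within the WT range. Its log2 fold change of 0.01 had a 95% interval from −0.12 to 0.14, or 0.923-fold to 1.105-fold, and turned below 0 in 6 of 19 alternative fits, the abundance-dependent and thinned ones included.

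How far the mice of 1 genotype differed was set beside the error of counting alone, as the chi-square of the counts per degree of freedom, which is near 1 when counting is the sole source of spread. It was 9.22 for Nefh, 5.69 for Nefm, 3.45 for Nefl and 2.83 for Ina, and 10.7 for Prph. For Map2 it was 1.12, for Map1b 0.975, for Map1a 0.923, for Stmn2 0.515 and for Mapt 0.391. Over the 359 genes with a mean of at least 200 counts the median was 1.49, and 30.9% were below 1. Of these genes 10 exceeded Nefh, 25 Nefm, 45 Nefl and 61 Ina, whereas 228 exceeded Map2, 252 Map1b, 261 Map1a, 326 Stmn2 and 343 Mapt.

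No pair of the 10 genes passed the adjustment for correlation over the 9 mice. The Pearson correlation of log2(cpm + 1) was above 0 for all 10 pairs of filament subunits (median 0.655, lowest 0.435, 4 with an unadjusted exact p under 0.05), against a median of 0.0896 for the 10 pairs of microtubule-binding genes and 0.0402 for the 25 mixed pairs. These groups of pairs were not tested against each other. The closest pair was Nefm with Nefh (r = 0.886, exact permutation p = 0.00158, adjusted p = 0.0709 over 45 pairs; Spearman rho = 0.867, exact p = 0.00451, adjusted p = 0.101). Without WT 3 and DJ-1 KO 3, the mice farthest from the median of Nefm, r was 0.883. Nefm with Ina followed (r = 0.842, exact permutation p = 0.00430, adjusted p = 0.0967, and rho = 0.867, exact p = 0.00451, adjusted p = 0.101), with r = 0.699 without the same 2 mice.

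Nefl and Nefh gave r = 0.780 (exact permutation p = 0.00895, adjusted p = 0.134) and rho = 0.817 (exact p = 0.0108, adjusted p = 0.162), and r fell to 0.539 without WT 3 and WT 4. Nefl and Nefm gave r = 0.729 (exact permutation p = 0.0279, adjusted p = 0.289) and rho = 0.650 (exact p = 0.0666, adjusted p = 0.374). Without WT 3 and WT 4, the mice farthest from the median of Nefl, r was 0.338, over a narrower range. Among microtubule-binding genes Map1a and Map1b came closest (r = 0.721, exact permutation p = 0.0321, adjusted p = 0.289, and rho = 0.650, exact p = 0.0666, adjusted p = 0.374), with r = 0.567 without DJ-1 KO 1 and 2. Of the 45 pairs 5 had an unadjusted exact p under 0.05.

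On chromosome 14 of GRCm38 (GENCODE M21) the annotated span of Nefm encloses Nefl. Nefl lies from 68083863 to 68089095 on the plus strand and Nefm from 68082590 to 68124846 on the minus strand, and their annotated exons share 1108 bases. Ina, on chromosome 19 from 47014698 to 47025327, shares 456 exonic bases with Nt5c2 on the opposite strand, and Map1a, on chromosome 2 from 121289600 to 121310832, shares 272 with Ppip5k1. Whether strand was used in counting is not given in the sources used here, so counts of such overlapping stretches cannot be assigned with certainty. Map1b, on chromosome 13 from 99421446 to 99516540, encloses 5330431K02Rik on its own strand, a gene with 279 counts over all libraries and no exonic base in common. Nefh lies on chromosome 11 from 4938754 to 4948064 and Prph on chromosome 15 from 99055174 to 99058978, without an overlapping gene.

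The genes whose levels followed the mean of Nefl, Nefm and Nefh most closely over the 9 mice are given as a description. They were ranked among 10760 genes and not among all 18127 tested. They were Lgi2 (r = 0.981, rho = 0.917), Irx1 (r = 0.976, rho = 0.967), Nuak1 (r = 0.975, rho = 0.883), Chrm2 (r = 0.973, rho = 0.933) and Vamp1 (r = 0.964, rho = 0.967). Psmg3, Nrg1, Gm26673, Ndufs1 and Slc20a1 came next, with r from 0.953 down to 0.941. All 10 were highest in WT 3, and all but Ndufs1 lowest in WT 4, the mice that were also at the ends for Nefl and Nefh. Such shared ends come in large part from ranking genes by this likeness. Vamp1, a synaptic vesicle protein of fast-firing neurons, measured 282, 219, 330 and 201 cpm in WT and 291, 270, 236, 263 and 249 cpm in DJ-1 KO mice. Chrm2, a muscarinic acetylcholine receptor, ran from 76.7 cpm in WT 4 to 143 cpm in WT 3. By the same measure Ina (r = 0.712) was exceeded by 542 of 10760 genes, and Mapt (r = −0.150) by 6725.

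Markers of neurons of particular regions differed between the same mice. The 10 markers of cholinergic and cranial motor neurons, all detected, summed to 336, 290, 361 and 183 cpm in WT and 475, 464, 406, 277 and 95.5 cpm in DJ-1 KO mice. Slc5a7, the choline transporter, was the most abundant of them, with 55.3 cpm in WT 4 and 29.2 cpm in DJ-1 KO 5 and between 86.4 and 127 cpm elsewhere. WT 4 and DJ-1 KO 5, the lowest mice of this list, were also the lowest for Prph, with 12.4 and 6.82 cpm. Both had at most 2 counts of Xist, as had WT 1, whose Prph was 29.7 cpm.

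The 6 markers of serotonergic neurons, all detected and led by Gata3, summed to 308, 201, 369 and 66.6 cpm in WT and 390, 199, 266, 348 and 96.5 cpm in DJ-1 KO mice, with WT 4 and DJ-1 KO 5 lowest once more. Gata3 by itself was lowest in WT 4 (47.4 cpm) but not in DJ-1 KO 5 (81.9 cpm, within the 67.1 to 108 cpm of the other 7 mice). The 12 markers of forebrain and thalamic neurons, all detected and led by Rora, were highest in those mice, with 1195 cpm in WT 4 and 1100 cpm in DJ-1 KO 5 against 412 to 702 cpm in the others. General neuronal markers were nearly level, the 14 genes summing to between 3055 and 3293 cpm over the 9 mice, with Celf4 the most abundant.

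The summed markers of 13 lists were set beside the mean log2(cpm + 1) of Nefl, Nefm and Nefh after the values were seen, without a test. Over the 9 mice r was 0.827 for serotonergic neurons, 0.780 for astrocytes, 0.769 for oligodendrocytes, 0.660 for endothelium and 0.506 for cholinergic neurons, and −0.832 for forebrain and thalamic neurons. It was −0.515 for choroid plexus, 0.376 for meninges and fibroblasts and −0.092 for microglia. For neurons in general it was 0.054, for dopaminergic neurons 0.116, for cerebellar neurons −0.111 and for residual blood 0.215. Summed over 11 markers, all detected and led by Mbp, oligodendrocytes measured 2730, 2131, 2849 and 2420 cpm in WT and 2746, 2553, 2348, 2414 and 2414 cpm in DJ-1 KO mice. They were highest in WT 3, as were Nefl and Nefh, and lowest in WT 2, whereas Nefl and Nefh were lowest in WT 4. The part of any of these cell types, or of sex, in the levels of Prph and of the neurofilament genes was not tested.

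**Figure D3:**
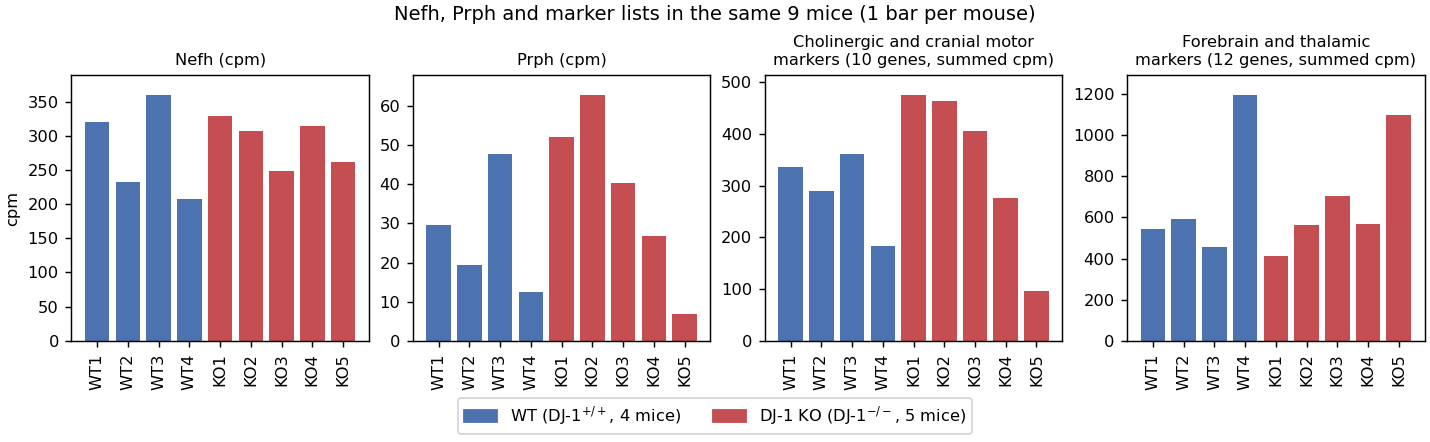
Nefh and Prph in cpm, and the summed cpm of markers of cholinergic and cranial motor neurons and of forebrain and thalamic neurons, with 1 bar for each of 4 WT and 5 DJ-1 KO mice. WT 4 and DJ-1 KO 5 have the lowest Prph (12.4 and 6.82 cpm) and the highest forebrain and thalamic markers (1195 and 1100 cpm).

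Promoter sequences from RefSeq (GRCm38.p6) were matched for 5 of the 10 genes, Ina, Prph, Map2, Map1a and Map1b. Those of the filament subunits Ina and Prph, which have RefSeq windows here, are shown for the 250 bases before the RefSeq start, both on the plus strand. For Ina this start lies upstream of the GENCODE start given above. Capitals mark matches to the TATA box (searched as TATAAA) and to the GC box. The GC box was searched as GGGCGG, and the CCAAT box by the letters in its name. Both strands were read, so a box on the minus strand appears as its reverse complement.
Ina, chr19:47014431-47014680: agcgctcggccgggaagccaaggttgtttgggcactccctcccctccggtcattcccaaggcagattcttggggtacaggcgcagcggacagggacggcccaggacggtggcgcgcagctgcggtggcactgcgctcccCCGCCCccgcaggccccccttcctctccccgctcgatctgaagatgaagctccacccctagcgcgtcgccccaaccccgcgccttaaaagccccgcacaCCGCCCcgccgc
Prph, chr15:99054924-99055173: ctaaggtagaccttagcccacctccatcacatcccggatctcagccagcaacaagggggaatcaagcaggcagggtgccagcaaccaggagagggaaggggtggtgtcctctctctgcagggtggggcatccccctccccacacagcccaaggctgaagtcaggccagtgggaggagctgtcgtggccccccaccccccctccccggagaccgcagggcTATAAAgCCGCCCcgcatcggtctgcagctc
Prph had TATAAA beginning 31 bases before the start and 1 GC box beginning at 24, without overlap, and Ina had 2 GC boxes beginning at 111 and 12 and no TATAAA. Among all 32851 promoter windows of this length 12.4% held TATAAA, 32.7% GGGCGG and 33.9% CCAAT. Map2 had 5 GC boxes and Map1a 4, of which a pair overlap, and Map1a alone of the 5 had CCAAT. Map1b had TATAAA at 99 and a GC box at 39 bases before the start. These matches describe letters in the window and are not binding sites.

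Other genes of the cytoskeleton were taken from 8 lists by textbook role, mostly axonal but including a list of intermediate filament genes of other cells. Of 133 genes tested, 71 had a log2 fold change above 0 and 62 below, edgeR gave 0 with an adjusted p under 0.05 and 2 by the unadjusted rule, which 2.82% of all tested genes met. Of all 18127 tested genes 9386 were above 0 and 8741 below. The median log2 fold change of the 133 genes was 0.008. Extremes of each list are given among genes with a mean of at least 20 counts. Of 12 alpha and beta tubulins tested, the subunits of the microtubule itself, 8 were above 0 and 4 below. Tuba1a was the most abundant tubulin, with 290 ± 10.3 cpm (SD, n = 4) in WT and 281 ± 18.0 cpm (SD, n = 5) in DJ-1 KO mice. Tubb4a had the highest log2 fold change (0.12, standard error 0.08).

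Tuba1c, the lowest at −0.60 (standard error 0.23, edgeR unadjusted p = 0.0197, adjusted p = 1.0), measured 28.5, 43.2, 33.7 and 58.7 cpm in WT and 28.0, 31.0, 27.8, 32.0 and 16.6 cpm in DJ-1 KO mice. WT 4 and WT 2 were high and DJ-1 KO 5 low, and the genotypes overlapped. Leaving out both WT 1 and WT 4 left 0 of the pathway genes with an unadjusted p under 0.05. WT 1 and WT 4 were the WT mice with at most 1 count of Xist, while DJ-1 KO 5, with 2 counts, was kept in.

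Of 31 other microtubule-associated proteins tested 16 were above 0 and 15 below, with Map7d2 the most abundant (log2 fold change −0.06) and Camsap3 (−0.14) and Map1s (0.25) at the ends. Of 8 other stathmins and CRMP proteins, relatives of Stmn2 and regulators of tubulin assembly, 7 were below 0 and 1 above: Stmn3, the most abundant, had −0.03, Dpysl3 −0.14 and Dpysl2 0.02. Among 19 tubulin modifying and severing enzymes Ttll7, a polyglutamylase, was the most abundant (0.03), and Agbl4 (−0.29, edgeR adjusted p = 1.0) and Ttll1 (0.16) lay at the ends. The list does not hold every such enzyme: Ttll5, looked up after the values were seen, had −0.26 (edgeR unadjusted p = 0.0332, adjusted p = 1.0). Agbl4 was the only named gene of these lists whose genotypes did not overlap (24.4 to 29.6 cpm in WT, 16.0 to 22.8 cpm in DJ-1 KO mice), as in 1.25% of all tested genes. Of 22 axonal transport motors 15 were above 0 and 7 below. Kif5a, a kinesin that carries neurofilaments, was level at 445 ± 38.1 cpm (SD, n = 4) in WT and 446 ± 28.3 cpm (SD, n = 5) in DJ-1 KO mice, and Kif3c (−0.11) and Kif1a (0.11) were the extremes.

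Of 18 kinases and phosphatases of tau and neurofilaments 9 were above 0 and 9 below. Ppp2r2a, a regulatory subunit of protein phosphatase 2A, measured 170, 195, 165 and 170 cpm in WT and 195, 180, 194, 208 and 212 cpm in DJ-1 KO mice, with only WT 2 among the knockouts. Its log2 fold change was 0.17 (standard error 0.08, edgeR unadjusted p = 0.0382, adjusted p = 1.0). Gsk3b, a tau kinase, was the most abundant (−0.05), and Mark4 (−0.11) and Ttbk1 (0.21) were at the ends. Of 14 genes of the membrane-associated axonal cytoskeleton 7 were above 0 and 7 below, with Sptbn1 the most abundant (−0.02), Sptbn4 at −0.07 and Marcksl1 at 0.18. Among 9 intermediate filament genes of other cells Gfap, of astrocytes, was the most abundant (0.01), Vim had −0.15 and Lmnb2 0.30 (edgeR unadjusted p = 0.0503, adjusted p = 1.0).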

How the data were processed

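The authors deposited UMI counts per gene for each mouse without normalization. The submitters' processing notes name fastp 0.20.0, STAR 2.7.3a, Subread featureCounts 2.0.0, UMI-tools 1.0.0 and GRCm38 without roles. Counts were joined by Ensembl identifier, absent genes were set to 0, and symbols came from GENCODE M21. The filter kept genes reaching 10 counts summed over the 9 libraries, and these were tested with edgeR 4.0.16 (quasi-likelihood, TMM, genotype alone, Benjamini-Hochberg over 18127 genes) in R 4.3.3. A log2 fold change's standard error was its size over the square root of F. Cpm, shares and correlations were tested exactly over the 126 splits or 362880 orderings. Correlations with genotype means removed used the 2880 orderings within genotypes. Alternatives were RLE factors, library totals, DESeq2 1.42.0, other filters, thinned counts, an Xist covariate, a replicate block, left-out libraries and abundance-dependent scaling, the last chosen after seeing the data.

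The members and lists were chosen with earlier results of these data known. Named genes are the members, Park7, for each of the 8 pathway lists the genes with an unadjusted p under 0.05, the most abundant and the extremes among genes with a mean of at least 20 counts, for each of the 13 marker lists the most abundant gene and defining markers at 0, and the 10 genes most like Nefl, Nefm and Nefh. Others were picked after their values were seen. In 1 marker list 1 gene is not reported here. Scripts were tested on simulated data.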

Additional observations from a re-analysis of the deposited data

Results flagged for a closer look

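Of 156 groups of mice looked at, 7 (4.49%) held 1 mouse far from the rest, its gap to the next mouse over the whole range being above Dixon's 95% critical value. Chance passes that level in about 1 group in 20. Among the members, the share of Nefh in the 5 subunits was 20.9% in DJ-1 KO 3 and 22.3 to 22.8% in the other knockouts. Among pathway genes, Tuba1c was at 16.6 cpm in DJ-1 KO 5 (27.8 to 32.0 cpm in the other knockouts) and Sptbn1 at 389.8 cpm in the same mouse (338 to 351 cpm in the others). Agbl4, a deglutamylase of tubulin, was at 29.6 cpm in WT 2 (24.4 to 24.9 cpm in the other WT mice) and at 16.0 cpm in DJ-1 KO 1 (21.4 to 22.8 cpm in the other knockouts). Of the marker genes, Zic1 was at 230.0 cpm in DJ-1 KO 5 (120.1 to 149 cpm in the other knockouts) and Rora at 339 cpm (160.3 to 205 cpm in the others). DJ-1 KO 5, the mouse with the lowest Prph, thus held 4 of the 7 values.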

How the results depend on the processing

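Over 19 alternative fits the 10 members gave 190 log2 fold changes, of which 172 kept their sign and their side of an unadjusted p of 0.05, 16 turned sign and 2 passed it. Map1a, Map1b and Prph kept their sign in all of these fits, and no member had an adjusted p under 0.05 in any. The median over the members ran from −0.065 to 0.014, above 0 without WT 3 alone. The members' median deviation had an SD of 0.0847 between single mice of 1 genotype. That is not the error of a difference between genotype means. Stmn2 turned to −0.009 with counts thinned to the smallest library, to −0.014 with abundance-dependent scaling (chosen after seeing the data) and to −0.017 without both WT 1 and WT 4, where Nefh gave −0.016 and Mapt 0.027.

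Leaving out each library in turn gave log2 fold changes from −0.119 to 0.024 for Nefl, −0.121 to 0.061 for Nefm, −0.056 to 0.206 for Nefh, −0.083 to 0.020 for Ina, −0.082 to 0.001 for Map2, 0.206 to 0.887 for Prph, −0.056 to −0.005 for Mapt, −0.104 to −0.040 for Map1a, −0.093 to −0.031 for Map1b and −0.007 to 0.037 for Stmn2. The sign turned without WT 2 (Nefh, Map2), WT 3 (Nefl, Nefm, Ina), WT 4 (Nefh, Stmn2), DJ-1 KO 3 (Nefm, Ina) or DJ-1 KO 1 or 4 (Stmn2). The difference in mean cpm (DJ-1 KO minus WT) then ran from −31.0 to 6.45 for Nefl, −29.1 to 13.8 for Nefm, −12.0 to 38.65 for Nefh, −14.8 to 4.24 for Ina, −16.7 to 1.74 for Map2, −1.115 to 9.42 for Stmn2, 4.21 to 18.2 for Prph, −9.82 to −1.15 for Mapt, −25.3 to −11.7 for Map1a and −30.8 to −11.2 for Map1b. The difference in share ran from −1.31 to 0.471 percentage points for Ina, −1.71 to −0.214 for Nefl, −1.035 to −0.253 for Nefm, 0.446 to 1.985 for Nefh and 0.401 to 1.41 for Prph. No exact permutation p of a member or share fell under 0.05 in these. The unadjusted count of members went from 0 to 1 (Prph, without DJ-1 KO 5), that of pathway genes from 1 to 5 (highest without WT 2), that of all genes from 338 (without DJ-1 KO 2) to 732 (without WT 2), and adjusted calls over all genes from 1 to 2 (without WT 2 or WT 3).

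Without a filter on low counts edgeR called 36 genes adjusted and 802 unadjusted. DESeq2 gave 235 unadjusted and filterByExpr, which tests fewer genes, 338. Pathway genes with an unadjusted p under 0.05 numbered 1 with RLE factors, DESeq2 or filterByExpr and 0 without both WT 1 and WT 4. The cause was not tested. Genotype means were also removed first, with orderings then taken within genotypes only (2880 in place of 362880). Both choices changed together, and their separate parts in the p-values were not tested. This left r at 0.725 for Nefl with Nefm (exact permutation p = 0.0583) and at 0.653 for Map1a with Map1b (exact permutation p = 0.0625). Nefh with Ina (r = 0.712, exact permutation p = 0.0243) and Nefl with Prph (r = 0.667, exact permutation p = 0.0264) then fell under 0.05, so the number of such pairs stayed at 5, with 0 passing the adjustment.

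With the replicate number as a block (DJ-1 KO 5 left out) 8 genes were called, and 564 of all genes had an unadjusted p under 0.05. Among the 564 were 1 member (Prph, 0.769, unadjusted p = 0.0117) and 1 pathway gene, and no member had an adjusted p under 0.05. The numbers share no stated litter or day, and deviations of same-numbered mice correlated at 0.290, 0.055, −0.116 and −0.198, with 1 of the 4 WT mice closest to its own number, so the mice were not treated as paired.

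Depth limits Prph most, with 7 counts in its lowest library, and 3 counts were taken as the floor. Every DJ-1 KO library was deeper than every WT library, so depth and genotype cannot be told apart by splitting them. With library totals thinned to the smallest the median over the members was −0.049, which does not settle the part of depth.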

Other observations

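The remaining marker lists describe the tissue. Of the 16 dopaminergic markers, all detected and led by Aldh1a1, 13 were above 0, edgeR's unadjusted p was under 0.05 for 5 of these (2.82% over all tested genes) and the adjusted p for 0, and the sum was lowest in WT 4 (678 cpm) and highest in DJ-1 KO 4 (1290.0 cpm). All 12 cerebellar markers, led by Zic1, were below 0, 7 with an unadjusted p under 0.05 (2.82% over all tested genes), and summed to 1729 cpm in WT 1 and to 612 to 863 cpm elsewhere. All 12 choroid plexus markers, led by Enpp2, were below 0, 5 with an unadjusted p under 0.05 (again beside 2.82%), and summed to 1232 cpm in WT 4, 658 cpm in WT 1 and 377 to 511 cpm elsewhere. Of the other lists, the 10 astrocyte markers (most abundant Slc1a2) summed to 1891 to 2169 cpm, the 10 microglial markers (Cx3cr1) to 616 to 732 cpm and the 10 endothelial markers (Flt1) to 587 to 761 cpm. The 10 markers of meninges and fibroblasts (Ptgds) summed to 620.0 to 856 cpm, with 9 detected and Igf2 without a count in all 9 libraries, and the 6 of residual blood (Hbb-bs) to 382 to 666 cpm. In general neuronal, forebrain and thalamic, and blood markers 1 gene each had an unadjusted p under 0.05 (Eno2, Ppp1r1b and Hba-a2, named after their values were seen), and in the cholinergic, serotonergic, oligodendrocyte (11 markers), astrocyte, microglial, endothelial and meningeal lists 0 had. No gene of these lists had an adjusted p under 0.05 in edgeR.

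5 ratios within a library were computed after the values were seen. Nefh over Nefl was 0.818, 0.672, 0.826 and 0.643 in WT and 0.833, 0.901, 0.673, 0.871 and 0.784 in DJ-1 KO mice (exact two-sided permutation test, p = 0.238). WT 2, WT 4 and DJ-1 KO 3 were the low mice. Nefm over Nefl ran from 0.763 to 1.04 (exact permutation p = 0.857) and Ina over Nefl from 0.679 to 0.917 (exact permutation p = 0.841). Map1b over Map1a lay between 1.23 in DJ-1 KO 5 and 1.38 in WT 4 (exact permutation p = 0.762), and Map2 over Mapt between 0.795 in WT 4 and 1.04 in WT 2 (exact permutation p = 0.746).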
